A study of Mus musculus with 18 samples.

Results

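The genes described here are 42 genes of DNA replication and nucleotide supply, measured in regulatory T cells (Tregs) of NOD mice. They were chosen by name from what their products do: each is represented by a probe set (the group of probes that reports 1 transcript) annotated with exactly that symbol, and where a gene had several such probe sets, by the one with the highest mean over the 18 arrays. All 42 were found among the 19752 genes that the arrays measured this way. By role they were 4 origin licensing genes, 7 MCM genes, 4 genes of Cdc45 and the GINS complex, 4 of polymerase alpha and primase, 4 of polymerases delta and epsilon, 5 of the sliding clamp and its loader, 3 of single-strand binding, 2 of fragment maturation, 4 of nucleotide supply and 5 of fork surveillance.

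Replication begins when the origin recognition complex, Cdc6 and Cdt1 load a ring of MCM proteins onto DNA, and it starts in S phase when Cdc45 and GINS turn that ring into a moving helicase. Polymerase alpha with primase lays primers, polymerases delta and epsilon extend them on the Pcna clamp, and ribonucleotide reductase, thymidylate synthase and thymidine kinase supply the building blocks. Most of these genes are transcribed for S phase under E2F factors, and resting T cells hold many of their products at low levels until they enter the cell cycle.

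Each of 6 groups held 3 arrays. Spleen Tregs came, per the labels, from 60-day-old female NOD mice that carried a Foxp3-eGFP-Cre-ERT2 allele and a Rosa26-YFP reporter, and had received 4 tamoxifen injections. The recombinase is driven by Foxp3, the transcription factor of Tregs, so only cells that expressed Foxp3 under tamoxifen, and their progeny, turn YFP+. Injections fell between days 0 and 10 of age in the perinate-treated mice or between days 35 and 45 in the adult-treated mice. GFP+YFP+ cells are called perinate-tagged and adult-tagged below, and GFP+YFP- cells of the same treatments are called untagged; untagged cells are Foxp3-expressing at sorting and may be of any age. Both tagged groups were sorted at 60 days, so the time from tamoxifen to sorting differs between them. Thymus Tregs were CD4+ GFP+ cells of male NOD mice: perinate thymus at 4 days of age, adult thymus at 5 weeks. Sex, sorter, age at sorting and tissue differ together between spleen and thymus, and tamoxifen is listed for the spleen mice only. These cannot be told apart. A chimera arm named in the study's design is not analysed here, and the labels do not say whether an array stands for 1 animal or a pool, so p-values measure the spread between these samples.

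Values are log2 intensities, differences are on the log2 scale with their standard error (SE) from limma, n is 3 arrays a group, and a gene is called when its Benjamini-Hochberg adjusted p is under 0.05. Foxp3 stood at 11.88 to 12.40 on the 18 arrays. The library labelled perinate-tagged replicate 2 did not match the labelled sex: Eif2s3y, a Y-linked gene, was 9.79 there, whereas the remaining spleen arrays read 3.95 to 4.90. Xist, made from the inactive X, was 8.38 there and 11.86 to 12.41 elsewhere in spleen. Counts of called members that use it are also given without it, as are some medians, and all other values include it. Transcripts absent by sex read 3.95 to 6.30, a guide to the level of no signal. The interquartile range of an array's values also moved with the groups, at 2.94 to 3.12 on perinate-tagged and 2.49 to 2.88 on adult-tagged arrays, and at 3.00 to 3.06 on perinate and 2.08 to 2.82 on adult thymus arrays. Markers of myeloid cells averaged 5.59 to 6.38 and those of NK cells 5.30 to 6.0 over the 6 groups, while 4 measured T cell markers averaged 11.42 to 12.24. Other lists lay above that guide: both CD8 T cell markers averaged 9.31 to 9.87 on the thymus and 7.11 to 7.47 on the spleen arrays, and 3 plasma cell markers 7.31 to 7.77 over all arrays.

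The stretches before the transcription start of 5 members are shown first, because they place the letters an E2F factor can bind beside genes that moved differently. RefSeq promoter windows (GRCm38.p6) were at hand for 35 of the 42 members. The letters searched were TTTCCCGC, TTTCGCGC, TTTGCCGC and TTTGGCGC on both strands, and capitals below mark every match, overlapping ones included. Each run holds the 250 bases before the start, written 5′ to 3′ on the gene's strand. Mcm6 was chosen as the member with the most matches (3), Mcm5 for 2 overlapping matches, Dtl for a match that ends at the last base before the start, Rrm2 as the gene with the largest tagged difference, and Timeless as a gene not called in tagged cells.
Mcm6 (chr1:128359706-128359955, - strand): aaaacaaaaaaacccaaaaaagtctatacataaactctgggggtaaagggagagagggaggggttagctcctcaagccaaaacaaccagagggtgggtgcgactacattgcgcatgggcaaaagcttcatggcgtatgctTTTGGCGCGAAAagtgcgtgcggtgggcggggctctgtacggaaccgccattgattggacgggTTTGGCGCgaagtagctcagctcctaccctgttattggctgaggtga
Mcm5 (chr8:75109259-75109508, + strand): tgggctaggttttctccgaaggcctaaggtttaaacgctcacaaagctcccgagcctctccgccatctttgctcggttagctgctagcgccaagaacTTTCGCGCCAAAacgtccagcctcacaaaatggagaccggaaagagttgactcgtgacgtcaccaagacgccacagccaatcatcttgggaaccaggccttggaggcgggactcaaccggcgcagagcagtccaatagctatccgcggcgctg
Dtl (chr1:191575545-191575794, - strand): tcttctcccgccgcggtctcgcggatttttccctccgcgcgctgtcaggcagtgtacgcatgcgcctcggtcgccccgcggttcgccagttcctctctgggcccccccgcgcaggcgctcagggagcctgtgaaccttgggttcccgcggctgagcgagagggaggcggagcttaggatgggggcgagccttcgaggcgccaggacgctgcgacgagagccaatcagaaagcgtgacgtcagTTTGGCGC
Rrm2 (chr12:24708004-24708253, + strand): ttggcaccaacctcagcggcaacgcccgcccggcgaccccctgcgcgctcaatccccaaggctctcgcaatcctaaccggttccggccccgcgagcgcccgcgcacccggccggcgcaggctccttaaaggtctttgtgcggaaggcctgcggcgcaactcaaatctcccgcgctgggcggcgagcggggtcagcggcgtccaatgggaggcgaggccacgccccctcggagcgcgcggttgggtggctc
Timeless (chr10:128237816-128238065, + strand): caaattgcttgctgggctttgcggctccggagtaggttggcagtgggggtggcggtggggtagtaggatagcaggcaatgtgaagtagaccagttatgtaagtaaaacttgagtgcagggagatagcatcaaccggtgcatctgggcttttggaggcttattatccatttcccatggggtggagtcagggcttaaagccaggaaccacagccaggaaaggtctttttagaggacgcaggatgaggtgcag
The first match of Mcm6 lies at -110 to -103 from the start, overlaps another on the opposite strand at -106 to -99, and is followed by 1 at -47 to -40. Those of Mcm5 lie at -153 to -146 and -149 to -142, and that of Dtl at -8 to -1. Rrm2 and Timeless have none of these letters in the window, which says only that the letters are not there.

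Over the whole 300-base window (250 bases before and 50 after the start), 15 of the 35 members held such a match, or 42.9%, against 704 of 27025 genes, or 2.60%, over all mouse promoters of the same table. They were Orc1, Cdc6, Cdt1, Mcm3, Mcm5, Mcm6, Mcm7, Gins3, Pola1, Pold1, Pole2, Rfc3, Lig1, Dtl and Clspn. The CCAAT letters stood in 62.9% of members and 41.1% of all genes, and TTTGAA, part of a cell cycle element of mitotic genes, in 14.3% of members and 20.2% of all. These shares were not tested, and a match does not show that a factor binds.

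**Figure D1:**
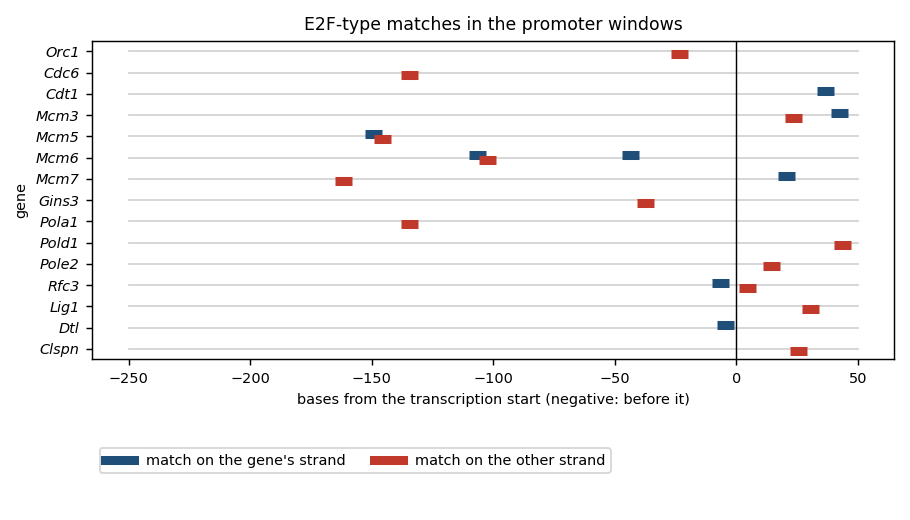
Position of the E2F-type letters in the 300-base promoter windows of the 15 members that hold a match, in bases from the transcription start; blue bars lie on the gene's strand and red bars on the other strand. Mcm6 holds 3 matches and Mcm5 holds 2 that overlap.

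The first comparison asked how Tregs tagged around birth and kept until 60 days differ from Tregs tagged in adult life. Replication and nucleotide supply genes were higher in the perinate-tagged cells almost throughout. Of the 41 members tested, 38 rose, 0 fell and 3 were not called, and the median difference was 0.88 against 0.12 over all genes tested. Rrm2, the small subunit of ribonucleotide reductase, rose the most, by 2.27 ± 0.24 (4.81-fold), followed by Dtl, Chek1, Pole and Tyms. Over all 10350 genes tested, 16.0% rose and 3.50% fell. In bulk RNA, more cells in S phase and more RNA per cell cannot be told apart.

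Perinate-tagged arrays lay wholly above adult-tagged ones for 38 of the members tested and wholly below for 0, against 33.2% and 12.7% of all genes. Orc1 was below the signal limit (a group mean of at least 7.05) in each spleen group and was not tested. Cdc6, Gins1 and Clspn passed that limit only through the perinate-tagged group, and without them 35 of 38 were called. With no limit, 36 of 42 were called, against 6.81% of all genes. Without the library labelled perinate-tagged replicate 2, 35 of 41 were called, and Cdt1, Rpa2 and Rpa3 were not. When the interquartile range of each array entered the model, 19 of 41 were called with a median of 0.61. Over all genes 2.95% were then called higher and 0.686% lower. These 19 were Cdc6, Mcm2, Mcm3, Mcm5, Mcm6, Mcm10, Cdc45, Pola1, Prim1, Pole, Rfc4, Lig1, Rrm1, Rrm2, Tyms, Tk1, Dtl, Chek1 and Clspn. Quantile normalization moved the median of all genes to -0.04 and the split of all calls from 82.1% to 54.2% higher. The members' median was 0.78 there, with 31 called, against 10.3% of all genes called higher. Summed B cell markers, 5 of 6 measured, were 9.83 to 10.10 in perinate-tagged and 9.46 to 9.59 in adult-tagged cells. Of these, Cd79b was 9.55 against 8.89 and Cd79a 5.30 against 5.16. Epcam, listed with thymic stroma, also rose by 1.07 ± 0.23, while Krt8 (-0.35 ± 0.15) and Col1a1 (-0.28 ± 0.14) of that list were not called. Summed stromal markers overlapped, at 9.28 to 9.45 in perinate-tagged and 9.24 to 9.47 in adult-tagged cells. Summed erythroid markers did not, at 8.75 to 9.12 in perinate-tagged and 8.59 to 8.7 in adult-tagged cells. Of that list Tfrc differed by 0.56 ± 0.19 (not called), while Alas2 and Klf1 were below the signal limit. The part of all these markers in the result was not tested.

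**Figure D2:**
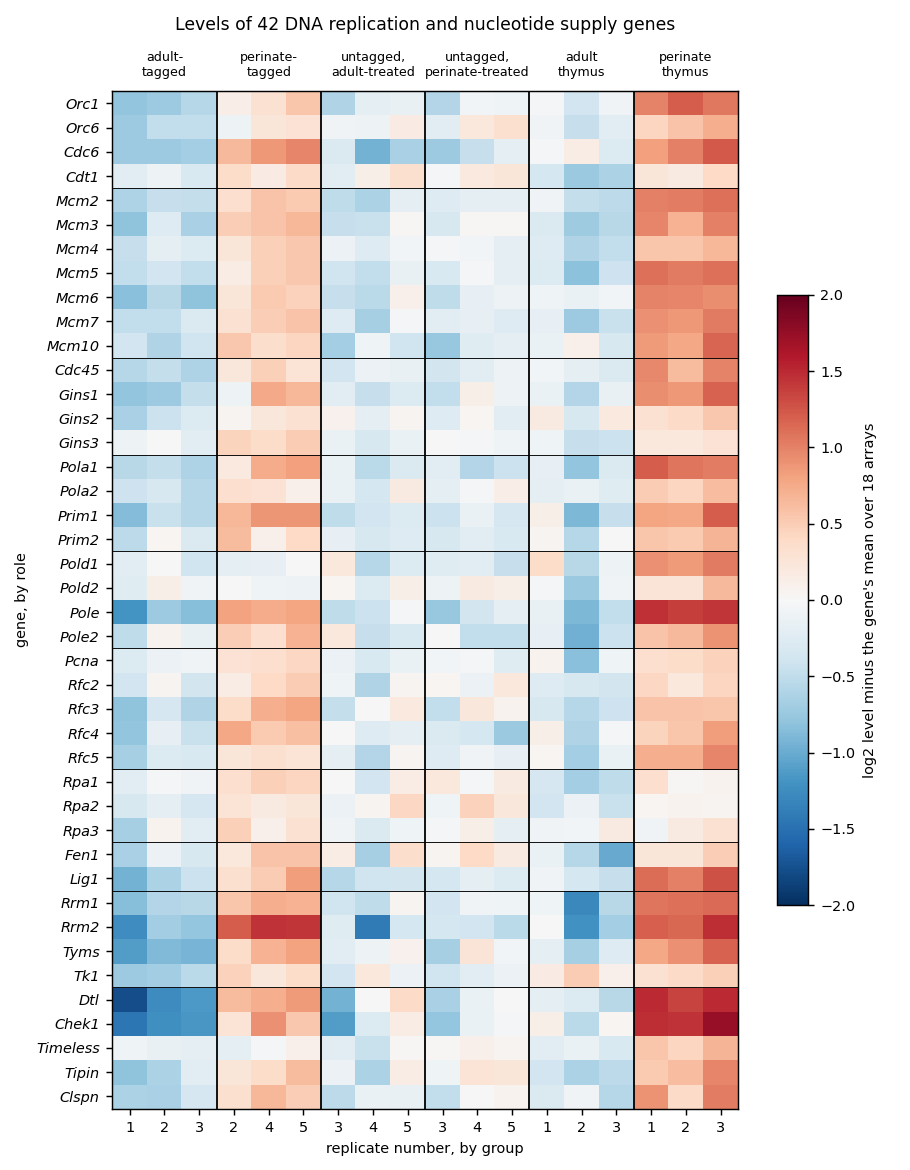
Log2 level of each of the 42 members minus its own mean over the 18 arrays (colour, from -2 to 2), with genes in rows ordered by role and arrays in columns by group and replicate number. The adult-tagged columns are the bluest of the spleen arrays, and the perinate-tagged and perinate thymus columns are the reddest.

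The mean of the 42 members gives the order of the groups. It was 7.76, 8.02 and 7.95 on adult-tagged replicates 1, 2 and 3 and 8.76, 8.89 and 8.94 on perinate-tagged replicates 2, 4 and 5. The untagged arrays, replicates 3, 4 and 5, lay between, at 8.15, 8.05 and 8.37 after adult and 8.12, 8.35 and 8.31 after perinatal tamoxifen. Adult thymus replicates 1, 2 and 3 gave 8.31, 7.92 and 8.10, and perinate thymus 9.13, 9.10 and 9.29. Perinate thymus was thus highest, perinate-tagged spleen next, and below them both untagged groups and adult thymus overlapped each other. Adult thymus also overlapped the adult-tagged arrays, which were below every untagged array. The group mean was lowest in adult-tagged cells among the spleen groups for 35 of 42 members and highest in perinate-tagged cells for 40 of 42. Over all 6 groups, perinate thymus was highest for 32 members and perinate-tagged spleen for the other 10, while adult-tagged cells were lowest for 26 and adult thymus for 13. Without the library labelled perinate-tagged replicate 2, perinate-tagged cells were still highest in spleen for 40 members, and perinate thymus was highest over all groups for 34. These orders were not counted over all genes, so they cannot be set against a general share. They include Orc1, which was below the signal limit in each spleen group. Orders over all 6 groups also set spleen beside thymus, which differ in more than tissue.

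**Figure D3:**
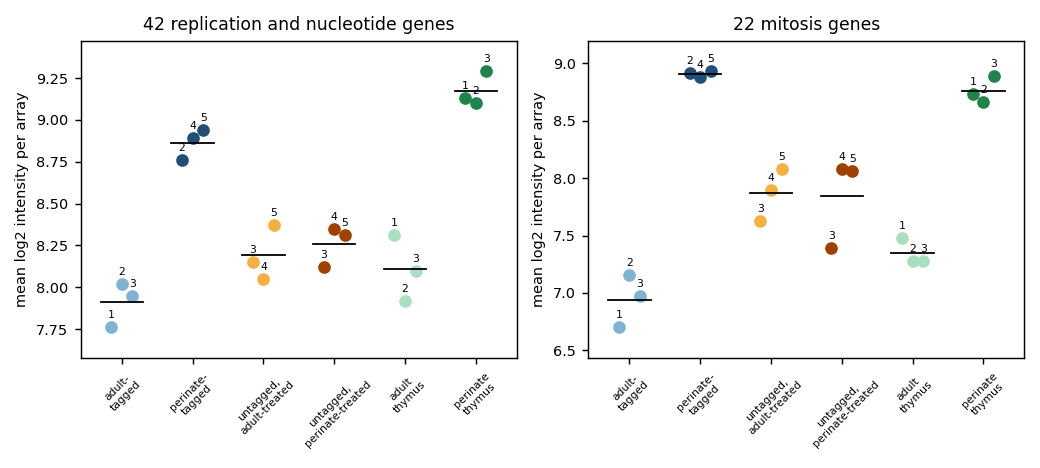
Mean log2 intensity of the 42 members (left) and of 22 mitosis genes (right) on each array; numbers are replicate numbers and bars are group means. The 3 perinate-tagged arrays lie at 8.76 to 8.94 for the members, above the 9 other spleen arrays.

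In the sentences below, arrays are in order of replicate number: 1, 2 and 3 for adult-tagged and both thymus groups, 2, 4 and 5 for perinate-tagged, and 3, 4 and 5 for both untagged groups. Origin licensing genes mark where replication may begin. Cdc6, which loads the MCM ring, stood at 6.32, 6.32 and 6.37 on the adult-tagged and 7.69, 7.91 and 8.02 on the perinate-tagged arrays. Untagged Cdc6 was 6.76, 6.10 and 6.40 in adult-treated and 6.32, 6.58 and 6.85 in perinate-treated mice. Thymus arrays gave Cdc6 at 7.03, 7.19 and 6.78 in adults and 7.86, 8.05 and 8.28 in perinates. The perinate-tagged and perinate thymus arrays read 7.69 or more, and the other 12 stayed between 6.10 and 7.19. Cdc6 differed by 1.53 ± 0.17 in tagged cells (adjusted p = 2.45e-05) and by 1.07 ± 0.16 in thymus (adjusted p = 0.00365). In both fits it passed the signal limit only through the perinate group, where it is high. Cdt1, its partner in loading, measured 8.46, 8.56 and 8.36 on the adult-tagged and 9.04, 8.83 and 9.05 on the perinate-tagged arrays. Adult-treated untagged Cdt1 levels were 8.45, 8.78 and 8.99, and perinate-treated ones 8.63, 8.86 and 8.91. Cdt1 in thymus was 8.31, 7.93 and 8.04 (adult) and 8.91, 8.85 and 9.07 (perinate). The tagged groups did not overlap, but the untagged arrays spanned both, and the difference was 0.51 ± 0.14 (adjusted p = 0.0242) against 0.85 ± 0.14 in thymus (adjusted p = 0.00557). Orc6, the smallest origin recognition subunit, rose by 0.71 ± 0.16 in tagged cells, and the untagged groups sat at 8.24 and 8.34, close to the perinate-tagged mean of 8.38. Orc1, the subunit made and destroyed with each cycle, reached the signal limit in perinate thymus alone, where it read 7.25, 7.47 and 7.32 against 6.23, 5.88 and 6.19 in adult thymus.

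The MCM genes encode the replicative helicase, Mcm2 to Mcm7, and Mcm10, which joins it to polymerase alpha. All 7 rose in tagged cells, by 0.73 to 1.15 with a median of 0.90 (0.96 without the library labelled perinate-tagged replicate 2), and all 7 in thymus, by 1.04 to 1.58 with a median of 1.38. Mcm3 had the largest tagged difference: it read 7.72, 8.27 and 7.88 on the adult-tagged and 9.02, 9.10 and 9.20 on the perinate-tagged arrays. Mcm3 in untagged cells gave 8.06, 8.09 and 8.55 (adult-treated) and 8.21, 8.55 and 8.55 (perinate-treated). For thymus, Mcm3 read 8.24, 7.82 and 7.98 in adult and 9.51, 9.22 and 9.54 in perinate cells. Each perinate-tagged and perinate thymus array was above every other array, and the difference was 1.15 ± 0.17 in tagged cells (adjusted p = 0.000305). Mcm4 had the smallest: it stood at 9.0, 9.26 and 9.19 on the adult-tagged and 9.70, 9.93 and 10.0 on the perinate-tagged arrays. For Mcm4, untagged cells read 9.35, 9.20 and 9.40 after adult and 9.42, 9.40 and 9.26 after perinatal tamoxifen. Adult thymus Mcm4 levels were 9.21, 8.86 and 8.97, and perinate thymus levels 10.02, 10.01 and 10.12. It separated the groups in the same way, with 0.73 ± 0.12 in tagged cells (adjusted p = 0.00105). Mcm2 measured 8.37, 8.52 and 8.51 on the adult-tagged and 9.32, 9.56 and 9.5 on the perinate-tagged arrays. Untagged Mcm2 was 8.48, 8.35 and 8.79 in adult-treated and 8.73, 8.81 and 8.79 in perinate-treated mice. Thymus arrays gave Mcm2 at 8.91, 8.50 and 8.46 in adults and 9.99, 10.01 and 10.08 in perinates. The untagged arrays of Mcm2 stayed within 8.35 to 8.81, nearer the adult-tagged than the perinate-tagged arrays, and the tagged difference was 0.99 ± 0.13 (adjusted p = 0.000112). Mcm6, whose promoter carries 3 E2F-type matches, rose by 1.15 ± 0.17 in tagged cells and 1.06 ± 0.10 in thymus.

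Cdc45 and the GINS genes complete the moving helicase, and all 4 rose in tagged cells. Gins1 read 5.96, 6.02 and 6.27 on the adult-tagged and 6.64, 7.50 and 7.40 on the perinate-tagged arrays. Adult-treated untagged Gins1 levels were 6.51, 6.29 and 6.47, and perinate-treated ones 6.25, 6.86 and 6.64. Gins1 in thymus was 6.61, 6.15 and 6.60 (adult) and 7.67, 7.61 and 7.93 (perinate). Perinate-tagged replicate 2 was the lowest of its group and below an untagged array, and the tagged difference of Gins1, 1.09 ± 0.21, had a wide spread (adjusted p = 0.00207). In both fits Gins1 passed the signal limit only through the perinate group, where it is high. Gins3 stood at 7.56, 7.64 and 7.44 on the adult-tagged and 8.10, 8.03 and 8.16 on the perinate-tagged arrays. Gins3 in untagged cells gave 7.52, 7.33 and 7.53 (adult-treated) and 7.66, 7.61 and 7.57 (perinate-treated). For thymus, Gins3 read 7.57, 7.20 and 7.22 in adult and 7.86, 7.86 and 7.94 in perinate cells. Here perinate-tagged arrays were the highest of all 6 groups, and the difference was 0.55 ± 0.11 (adjusted p = 0.00392). Cdc45 rose by 0.88 ± 0.12, and Gins2 by 0.64 ± 0.14 with an untagged mean of 8.46 after adult tamoxifen that lay nearer the perinate-tagged 8.66 than the adult-tagged 8.02.

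Polymerase alpha and primase make the primers, and their 4 genes rose by a median of 0.91 (0.98 without the library labelled perinate-tagged replicate 2). Prim1, the catalytic primase subunit, had the smallest adjusted p of the members tested: it measured 7.07, 7.49 and 7.36 on the adult-tagged and 8.59, 8.82 and 8.82 on the perinate-tagged arrays. For Prim1, untagged cells read 7.42, 7.54 and 7.65 after adult and 7.50, 7.79 and 7.60 after perinatal tamoxifen. Adult thymus Prim1 levels were 8.04, 7.03 and 7.47, and perinate thymus levels 8.72, 8.70 and 9.14. No perinate-tagged array came within the range of another spleen group, and the difference was 1.44 ± 0.14 (2.71-fold, adjusted p = 7.21e-06). Prim2, the other primase subunit, read 8.61, 9.18 and 8.85 on the adult-tagged and 9.77, 9.23 and 9.53 on the perinate-tagged arrays. Untagged Prim2 was 8.97, 8.81 and 8.88 in adult-treated and 8.82, 8.90 and 8.83 in perinate-treated mice. Thymus arrays gave Prim2 at 9.19, 8.56 and 9.12 in adults and 9.69, 9.66 and 9.81 in perinates. Its tagged groups nearly touched, at 9.18 and 9.23, and the difference was 0.63 ± 0.16 (adjusted p = 0.0128). Pola1, the catalytic subunit of polymerase alpha, rose by 1.14 ± 0.17, and Pola2, its accessory subunit, by 0.67 ± 0.15.

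Of the 4 genes of polymerases delta and epsilon, which copy the lagging and leading strands, 2 rose. Pole, the catalytic subunit of polymerase epsilon, stood at 7.0, 7.47 and 7.34 on the adult-tagged and 8.99, 8.94 and 8.98 on the perinate-tagged arrays. Adult-treated untagged Pole levels were 7.68, 7.76 and 8.17, and perinate-treated ones 7.44, 7.82 and 7.99. Pole in thymus was 8.05, 7.29 and 7.70 (adult) and 9.66, 9.57 and 9.62 (perinate). The 3 perinate-tagged arrays lay between 8.94 and 8.99, above every untagged and adult array, with a difference of 1.70 ± 0.17 (3.26-fold, adjusted p = 9.85e-06). Pold2, the accessory subunit of polymerase delta, measured 9.26, 9.61 and 9.42 on the adult-tagged and 9.49, 9.41 and 9.39 on the perinate-tagged arrays. Pold2 in untagged cells gave 9.53, 9.23 and 9.62 (adult-treated) and 9.40, 9.67 and 9.61 (perinate-treated). For thymus, Pold2 read 9.48, 8.75 and 9.42 in adult and 9.75, 9.76 and 10.14 in perinate cells. All 4 spleen groups overlapped, and the tagged difference was 0.00 ± 0.14 (95% interval -0.29 to 0.29, adjusted p = 0.996). Pold1, the catalytic subunit of polymerase delta, differed by 0.09 ± 0.17 (95% interval -0.29 to 0.46), while Pole2 rose by 0.70 ± 0.20 (adjusted p = 0.0239). The intervals of both polymerase delta genes end below the 0.88 that was the median of the members.

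Pcna, the sliding clamp that holds the polymerase on DNA, read 11.34, 11.51 and 11.55 on the adult-tagged and 11.91, 11.96 and 12.04 on the perinate-tagged arrays. For Pcna, untagged cells read 11.51, 11.31 and 11.48 after adult and 11.56, 11.58 and 11.37 after perinatal tamoxifen. Adult thymus Pcna levels were 11.69, 10.78 and 11.53, and perinate thymus levels 11.96, 11.99 and 12.08. It was bright on every array; the tagged groups did not overlap and differed by 0.51 ± 0.12 (adjusted p = 0.00847), the smallest difference among the 5 clamp and loader genes. Rfc3, a subunit of the clamp loader, stood at 6.93, 7.39 and 7.12 on the adult-tagged and 8.09, 8.45 and 8.51 on the perinate-tagged arrays. Untagged Rfc3 was 7.25, 7.72 and 7.93 in adult-treated and 7.23, 7.95 and 7.79 in perinate-treated mice. Thymus arrays gave Rfc3 at 7.40, 7.15 and 7.31 in adults and 8.30, 8.29 and 8.28 in perinates. The untagged arrays spread from 7.23 to 7.95, over the top of the adult-tagged range and below the perinate-tagged arrays; the tagged groups differed by 1.21 ± 0.21 (adjusted p = 0.00105). Rfc4 rose by 1.10 ± 0.17, Rfc5 by 0.69 ± 0.16 and Rfc2 by 0.59 ± 0.18. The single-strand binding protein had small differences throughout. Rpa3 measured 8.41, 9.14 and 8.86 on the adult-tagged and 9.55, 9.17 and 9.37 on the perinate-tagged arrays. Adult-treated untagged Rpa3 levels were 9.01, 8.78 and 8.99, and perinate-treated ones 9.03, 9.19 and 8.90. Rpa3 in thymus was 9.01, 9.02 and 9.25 (adult) and 9.0, 9.26 and 9.37 (perinate). Its tagged arrays nearly touched, at 9.14 and 9.17, and the difference of 0.56 ± 0.17 (adjusted p = 0.032) was not called without the library labelled perinate-tagged replicate 2. Rpa1, the large subunit, read 9.20, 9.38 and 9.34 on the adult-tagged and 9.74, 9.88 and 9.83 on the perinate-tagged arrays. Rpa1 in untagged cells gave 9.41, 9.03 and 9.56 (adult-treated) and 9.62, 9.39 and 9.59 (perinate-treated). For thymus, Rpa1 read 9.07, 8.73 and 8.90 in adult and 9.74, 9.43 and 9.48 in perinate cells. It differed by 0.51 ± 0.14 (adjusted p = 0.0198), and Rpa2 by 0.51 ± 0.16 (adjusted p = 0.0334).

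Lig1 and Fen1 join and trim lagging-strand fragments. Lig1, the ligase, stood at 7.26, 7.57 and 7.77 on the adult-tagged and 8.52, 8.72 and 9.04 on the perinate-tagged arrays. For Lig1, untagged cells read 7.64, 7.80 and 7.84 after adult and 7.85, 8.01 and 7.94 after perinatal tamoxifen. Adult thymus Lig1 levels were 8.13, 7.86 and 7.74, and perinate thymus levels 9.32, 9.22 and 9.48. Perinate-tagged and perinate thymus arrays stood above all others, with a tagged difference of 1.23 ± 0.15 (adjusted p = 7.2e-05). Fen1, the flap nuclease, measured 6.68, 7.22 and 7.01 on the adult-tagged and 7.55, 7.91 and 7.91 on the perinate-tagged arrays. Untagged Fen1 was 7.49, 6.67 and 7.68 in adult-treated and 7.39, 7.73 and 7.52 in perinate-treated mice. Thymus arrays gave Fen1 at 7.20, 6.77 and 6.33 in adults and 7.58, 7.57 and 7.82 in perinates. The untagged arrays ranged from 6.67 to 7.73, across the adult-tagged range and into the perinate-tagged one, and the tagged difference was 0.82 ± 0.22 (adjusted p = 0.0191).

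Nucleotide supply was the role with the largest median, 1.47 (1.55 without the library labelled perinate-tagged replicate 2), and its 4 genes all rose in tagged cells. Rrm2 read 7.16, 7.71 and 7.63 on the adult-tagged and 9.62, 9.86 and 9.83 on the perinate-tagged arrays. Adult-treated untagged Rrm2 levels were 8.17, 7.0 and 8.05, and perinate-treated ones 8.06, 8.02 and 7.87. Rrm2 in thymus was 8.40, 7.20 and 7.73 (adult) and 9.60, 9.55 and 9.88 (perinate). The perinate-tagged arrays were as high as those of perinate thymus, all other arrays were at or below 8.40, and the adjusted p was 1.64e-05. Tyms, which makes thymidylate, stood at 7.39, 7.62 and 7.58 on the adult-tagged and 8.88, 9.21 and 9.31 on the perinate-tagged arrays. Tyms in untagged cells gave 8.28, 8.40 and 8.59 (adult-treated) and 7.84, 8.77 and 8.45 (perinate-treated). For thymus, Tyms read 8.32, 7.85 and 8.25 in adult and 9.28, 9.42 and 9.69 in perinate cells. The untagged arrays lay above all 3 adult-tagged and below all 3 perinate-tagged arrays, and the tagged groups differed by 1.60 ± 0.20 (adjusted p = 5.97e-05). Tk1, the thymidine kinase of cycling cells, measured 7.59, 7.62 and 7.77 on the adult-tagged and 8.77, 8.53 and 8.67 on the perinate-tagged arrays. For Tk1, untagged cells read 7.92, 8.52 and 8.19 after adult and 7.91, 8.10 and 8.19 after perinatal tamoxifen. Adult thymus Tk1 levels were 8.47, 8.81 and 8.41, and perinate thymus levels 8.62, 8.69 and 8.78. Its adult thymus arrays overlapped those of perinate thymus, unlike the other 3 genes, and the tagged groups differed by 0.99 ± 0.15 (adjusted p = 0.000366). Rrm1, the large subunit of the reductase, rose by 1.33 ± 0.15 (2.51-fold).

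**Figure D4:**
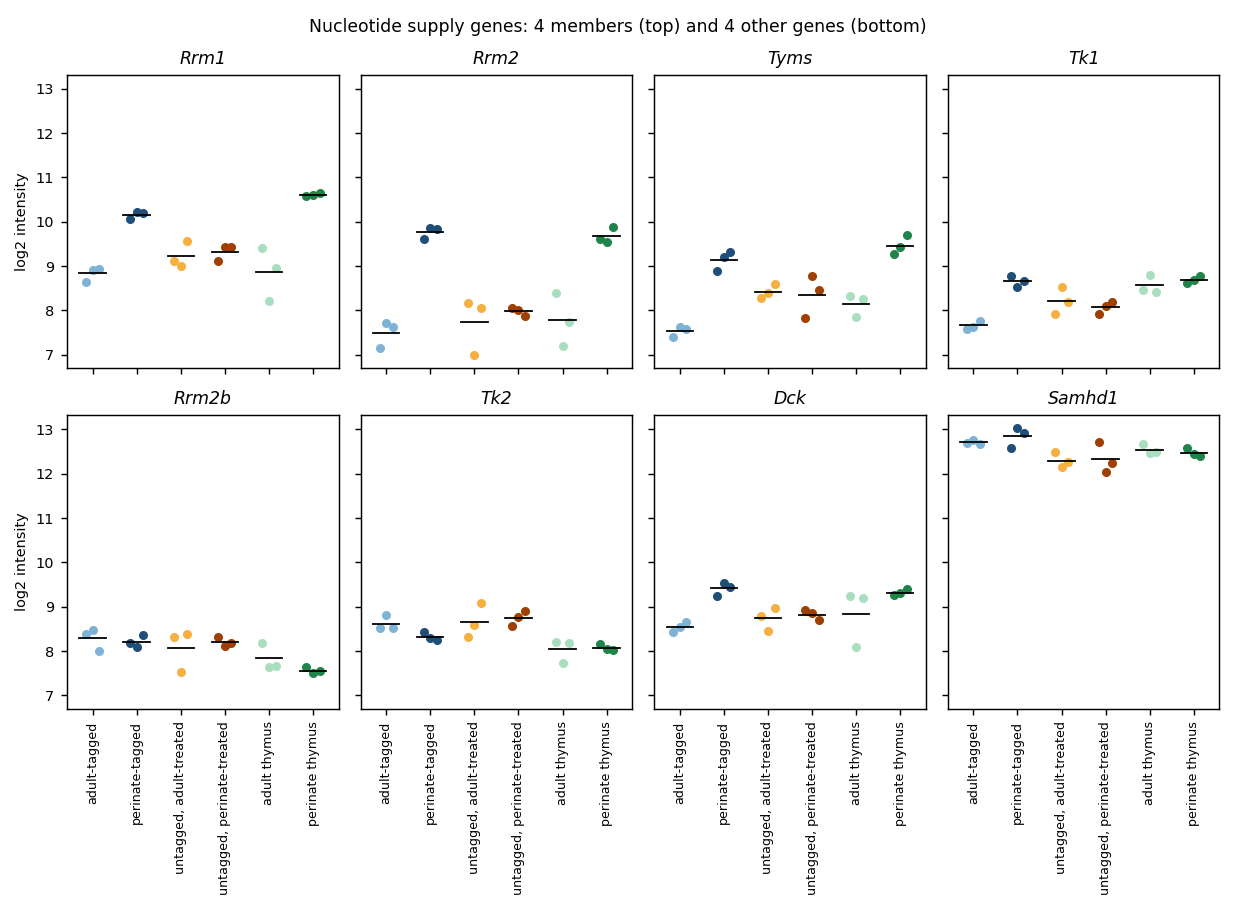
Log2 intensity of 8 nucleotide supply genes on every array (points) with group means (bars); the top row holds the 4 members and the bottom row 4 genes that also serve cells outside S phase. Rrm2 shows the widest gap, from a mean of 7.50 in adult-tagged to 9.77 in perinate-tagged cells, while Rrm2b stays at 8.29 and 8.21.

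The fork surveillance genes had 2 of the 3 largest differences of the 42 and also 1 of the smallest. Dtl, which guides Cdt1 to destruction once S phase starts, read 6.39, 6.92 and 7.02 on the adult-tagged and 8.80, 8.89 and 9.02 on the perinate-tagged arrays. Untagged Dtl was 7.23, 8.17 and 8.56 in adult-treated and 7.53, 8.04 and 8.18 in perinate-treated mice. Thymus arrays gave Dtl at 7.98, 7.89 and 7.61 in adults and 9.66, 9.53 and 9.66 in perinates. Adult-tagged arrays were the lowest of all 18, untagged arrays spread over 7.23 to 8.56, and the tagged groups differed by 2.12 ± 0.27 (4.36-fold, adjusted p = 9.35e-05). Timeless, a fork protection factor, stood at 7.64, 7.58 and 7.54 on the adult-tagged and 7.55, 7.70 and 7.84 on the perinate-tagged arrays. Adult-treated untagged Timeless levels were 7.52, 7.29 and 7.76, and perinate-treated ones 7.76, 7.83 and 7.79. Timeless in thymus was 7.50, 7.60 and 7.42 (adult) and 8.28, 8.16 and 8.41 (perinate). Its tagged groups overlapped (95% interval of the tagged difference -0.17 to 0.39, estimate 0.11 ± 0.13), and only the perinate thymus arrays stood apart. Tipin, the partner that binds Timeless, rose by 0.98 ± 0.20 in tagged cells, Chek1, the checkpoint kinase, by 1.85 ± 0.27 (3.61-fold), and Clspn, which brings Chek1 to the fork, by 1.03 ± 0.17. Clspn passed the signal limit in spleen only through the perinate-tagged group.

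The untagged cells asked whether the treatment schedule itself shifts these genes. No member was called between perinate-treated and adult-treated untagged cells, where 0 of all genes were called (0%, smallest adjusted p 0.995 by limma) and 380 (3.67%) had an unadjusted p under 0.05. The members' median was 0.09 against 0.06 over all genes, from -0.31 ± 0.17 for Rfc4 to 0.35 ± 0.20 for Tipin. Their 95% intervals ran from -0.67 at the lowest to 0.78 at the highest, so shifts of that size cannot be set aside for single genes. Groups did not overlap for Gins3 and Lig1 (higher, against 3.35% of all genes) and for Rfc4 (lower, against 1.46%). With the replicate number as a block over the 6 untagged arrays, 0 members were called, but over all genes 37 were then called higher and 12 lower.

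The difference between these differences was tested directly. For 21 of 41 members the tagged difference was called larger than the untagged one, and for 0 it was called smaller. Of the 41 estimates 39 were above 0, and the median was 0.79. Over all genes tested 4.29% were called higher and 0.599% lower. The largest were Dtl (2.19 ± 0.39, adjusted p = 0.00346), Rrm2 (2.03 ± 0.34), Pole (1.82 ± 0.24), Chek1 (1.74 ± 0.38) and Tyms (1.67 ± 0.28). All 4 nucleotide supply genes and 5 of the 7 MCM genes were among the 21, and none of the single-strand binding genes was. Leaving out adult-tagged replicate 1 lowered the 21 to 12, leaving out that array together with adult-treated untagged replicate 4 gave 13, and the replicate block gave 11. Over all genes 2.44%, 2.22% and 2.37% were then called higher, in that order. Without the library labelled perinate-tagged replicate 2 it was 23, with Mcm5, Mcm7 and Gins1 gained and Mcm10 lost. With no signal limit 15 of 42 were called, against 1.76% of all genes, and 19 of 38 without Cdc6, Gins1 and Clspn.

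Tagged and untagged cells of the same treatment were then compared. After perinatal tamoxifen 24 of 41 members were higher in tagged cells and 0 lower, with a median of 0.60 against 0.02 over all genes, of which 5.49% were called higher and 1.86% lower. Rrm2 (1.79 ± 0.24), Cdc6 (1.29 ± 0.17), Pole (1.22 ± 0.17), Prim1 (1.11 ± 0.14) and Rfc4 (1.10 ± 0.17) led, and all 7 MCM genes rose by 0.52 to 0.84. Tagged arrays were wholly above untagged ones for 30 of the members tested and wholly below for 0, against 19.7% and 12.3% of all genes. Among the remaining genes Orc6 (0.04 ± 0.16), Rpa2 (0.03 ± 0.16), Timeless (-0.10 ± 0.13) and Pold2 (-0.13 ± 0.14) were closest to 0. The count depends on single libraries: leaving out perinate-tagged replicate 4 gave 12, and replicate 5 gave 10. It was 14 without perinate-treated untagged replicate 4 and 12 without untagged replicate 5. Over all genes 2.5%, 2.46%, 3.3% and 2.9% were then called higher, in that order. Dropping the library labelled perinate-tagged replicate 2 gave 23. Cdc6, Gins1 and Clspn passed the signal limit through the perinate-tagged group here too, and 22 of the other 38 were called; with no limit 19 of 42 were, against 2.16% of all genes. The sum of the B cell markers moved with this comparison too, at 9.83 to 10.10 in tagged and 9.36 to 9.69 in untagged cells. Cd79b was higher by 0.81 ± 0.14 (adjusted p = 0.00286), and the other measured genes of the list were below the signal limit. The mean of the list overlapped, at 6.51 to 6.73 in tagged and 6.54 to 6.71 in untagged cells. The part of these markers in the result was not tested.

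After adult tamoxifen no member was called, and most estimates lay below 0. The median was -0.24 against -0.02 over all genes, 4 of 41 differences were above 0, and 0.271% of all genes were called lower and 0% higher. Dtl (-1.20 ± 0.27, adjusted p = 0.0705), Tyms (-0.89 ± 0.20, adjusted p = 0.068), Chek1 (-0.86 ± 0.27, adjusted p = 0.177) and Pole (-0.60 ± 0.17, adjusted p = 0.13) had the largest estimates. Adult-tagged arrays lay wholly below the untagged ones for 12 members, Orc6, Mcm6, Cdc45, Gins1, Gins2, Pole, Rpa2, Rrm1, Tyms, Tk1, Dtl and Chek1, against 10.3% of all genes, and wholly above for 0 members, against 6.70%. Without adult-treated untagged replicate 3 the count of called members was 5, without perinate-treated untagged replicate 3 it was 3, and without perinate-treated untagged replicate 4 it was 1. Calls over all genes rose with them, from 28 to 774, 259 and 42 in that order. At unadjusted p under 0.05, 1699 genes (16.4%) differed by limma.

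The thymus comparison asked whether these genes also differ between Tregs from perinate and adult thymus. These mice differed in age at sorting, whereas both tagged spleen groups were sorted at the same age and differed in the time of tamoxifen. How recently the sorted thymus cells were made was not tested. Of 42 members 36 rose from adult to perinate thymus and 0 fell, with a median of 1.06 against 0.17 over all genes, of which 18.5% rose and 5.84% fell. Perinate arrays were wholly above adult ones for 40 members and wholly below for 0, against 36.9% and 16.7% of all genes. Pole (1.94 ± 0.19, 3.84-fold), Rrm2 (1.90 ± 0.27), Dtl (1.79 ± 0.13), Rrm1 (1.75 ± 0.26) and Chek1 (1.68 ± 0.19) led. Orc1, Cdc6, Gins1, Fen1 and Clspn passed the signal limit only through perinate thymus, and 31 of the other 37 were called; with no limit 36 of 42 were, against 7.71% of all genes. Quantile normalization moved the median of all genes to -0.01 and the split of all calls from 76.0% to 53.5% higher. The interquartile range as a covariate moved that split to 44.7%. The members' medians were then 0.93 and 0.85, with 34 and 32 called, against 11.3% and 10.6% of all genes called higher. Summed erythroid markers, 3 of 6 measured, were also higher in perinate thymus (9.37 to 9.56 against 8.85 to 8.89); Tfrc was 9.11 against 8.03, while Alas2 (6.57 against 6.87) and Klf1 (5.99 against 6.41), which define red cell precursors, were not higher. Other summed lists were lower in perinate thymus without overlap: CD8 T cell markers at 10.37 to 10.46 against 10.84 to 10.96, with Cd8a lower by 0.61, dendritic markers at 8.24 to 8.29 against 8.47 to 8.75, myeloid markers at 8.41 to 8.55 against 8.59 to 9.02 and stromal markers at 9.27 to 9.46 against 9.56 to 9.71. Summed immature thymocyte markers (9.18 to 9.23 against 9.29 to 9.79) and T cell markers (14.09 to 14.14 against 14.21 to 14.32) were lower without overlap too. Of the immature thymocyte list only Cd1d1 reached the signal limit, and it was not called (-0.4 ± 0.26). The part of all these lists in the result was not tested.

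The 6 genes not called in thymus were Gins2, Pold2, Pcna, Rpa2, Rpa3 and Tk1. Pcna differed by 0.68 ± 0.22 (95% interval 0.16 to 1.19, adjusted p = 0.058) and Pold2 by 0.67 ± 0.21 (0.18 to 1.16, adjusted p = 0.0523). Both had their lowest value on adult thymus replicate 2, 10.78 and 8.75, the array with the narrowest interquartile range, 2.08. Gins2 differed by 0.39 ± 0.16 (adjusted p = 0.108), Rpa2 by 0.37 ± 0.12 (adjusted p = 0.0606), Rpa3 by 0.12 ± 0.14 (95% interval -0.20 to 0.44) and Tk1 by 0.13 ± 0.14 (95% interval -0.18 to 0.45). Without adult thymus replicate 2, 39 of the members tested were called, and leaving out other thymus arrays gave 28 to 38. Calls over all genes moved too. Without adult thymus replicate 2, 26.7% of all genes were called higher and 13.8% lower. Leaving out another thymus array gave 4.76% to 29.1% higher.

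**Figure D5:**
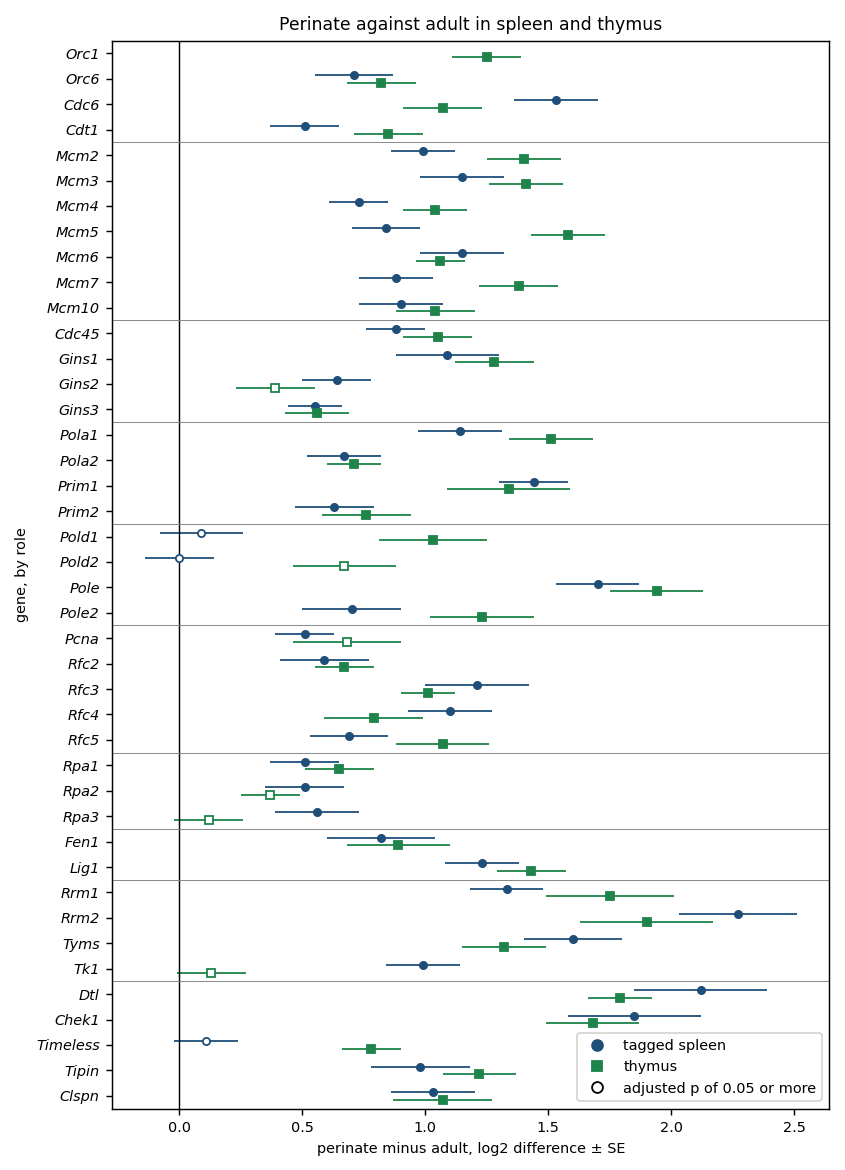
Perinate minus adult difference of each member, log2 with its SE, in tagged spleen cells (blue circles) and thymus (green squares); open marks have an adjusted p of 0.05 or more, and Orc1 was not tested in spleen. Most genes lie right of 0 in both tissues; Pold1, Pold2 and Timeless lie near 0 in spleen, and Tk1 and Rpa3 in thymus.

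The spleen difference minus the thymus difference was tested over all 18 arrays. It was called for 3 of 42 members, 1 higher and 2 lower, with a median of -0.14 against -0.05 over all genes; 3.89% of all genes were called higher and 2.56% lower, so the members' count is near that of all genes. The 3 genes are described singly. Tk1 rose more in spleen, by 0.86 ± 0.21 (adjusted p = 0.017). Mcm5 rose more in thymus: it read 8.65, 8.75 and 8.65 in adult-tagged, 9.29, 9.61 and 9.67 in perinate-tagged, 8.87, 8.32 and 8.72 in adult thymus and 10.23, 10.18 and 10.24 in perinate thymus, a difference between tissues of -0.75 ± 0.21 (adjusted p = 0.0357). Timeless, called in thymus and not in tagged spleen cells, differed between tissues by -0.66 ± 0.18 (adjusted p = 0.0298), and Pold1 missed the threshold at -0.94 ± 0.29 (adjusted p = 0.0562). These calls rest on single arrays. Without the library labelled perinate-tagged replicate 2 only Tk1 was called, and with no signal limit only Tk1 (against 1.78% of all genes higher). Leaving out adult-tagged replicate 1, 2 or 3, perinate-tagged replicate 4, or replicate 3 of either thymus group left 1 call, leaving out perinate thymus replicate 1 left 0, and leaving out adult thymus replicate 1 gave 5.

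The Tk1 result depends on which of 2 probe sets is read. The other probe set gave 7.04, 7.0 and 6.93 in adult-tagged and 8.37, 8.39 and 8.24 in perinate-tagged cells, and 7.70, 7.62 and 7.59 in adult and 8.23, 8.03 and 8.52 in perinate thymus. On it Tk1 rose in thymus, by 0.62 (adjusted p = 0.0206), and in tagged cells, by 1.34, and the difference between tissues was 0.72 (adjusted p = 0.138, not called). The second probe set of Pcna gave nearly the same values as the first (0.52 in tagged cells and 0.69 in thymus), and that of Rpa3 gave 0.40 and 0.00.

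Members with an E2F-type match in the promoter window had a median tagged difference of 1.08 (13 of 14 tested called) and those without a match 0.85 (18 of 20). In thymus the medians were 1.23 (15 of 15) and 0.86 (15 of 20). Some of these genes passed the signal limit only through the group where they are high; without them the medians were 1.01 and 0.85 in tagged cells and 1.30 and 0.82 in thymus, a restriction chosen after seeing the data. The tagged medians were 1.16 and 0.89 without the library labelled perinate-tagged replicate 2. Both sets spanned wide ranges in tagged cells, 0.09 for Pold1 to 2.12 for Dtl with a match and 0.00 for Pold2 to 2.27 for Rrm2 without, and they were not tested against each other.

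Genes of the same pathways outside the 42 give the setting. Over all genes tested 16.0% rose and 3.50% fell in tagged cells, and 18.5% rose and 5.84% fell in thymus. Of 15 other origin and firing factors tested 6 rose in tagged cells and 0 fell, from Orc5 (-0.28 ± 0.13), an origin recognition subunit, to Dbf4 (1.78 ± 0.18), the activator of the Cdc7 kinase. Of 16 other polymerase, loader and maturation genes 10 rose, led by Top2a (2.49 ± 0.18), the topoisomerase that untangles sister chromatids, with Pole4 lowest (-0.15 ± 0.21). Of 11 other fork surveillance genes 4 rose, from Rad9a (-0.13 ± 0.18) to Wee1 (1.34 ± 0.21), the kinase that restrains mitotic entry. Of 12 genes of chromatin replication 11 rose, from Ung (0.40 ± 0.15, not called) to Asf1b (1.87 ± 0.15), a histone chaperone. All 21 mitosis genes tested rose, with a median of 2.00 that lay above the members' 0.88, from Ndc80 (0.83 ± 0.17) to Bub1 (2.81 ± 0.35). These counts were, without the library labelled perinate-tagged replicate 2, 5 of 15 (and 1 lower), 10 of 16, 2 of 10, 11 of 12 and 21 of 21. The median of the mitosis genes was then 2.05. Over all genes 15.3% rose without that library, near the 20% of the other fork surveillance genes. In thymus the counts were 8 of 16 (Donson -0.20 ± 0.20 to Ticrr 1.79 ± 0.13), 9 of 18 (Polk -0.28 ± 0.11 to Top2a 2.10 ± 0.16), 3 of 11 (Hus1 -0.20 ± 0.11 to Wee1 1.18 ± 0.20), 10 of 12 (Ung 0.42 ± 0.14 to Hells 1.73 ± 0.23) and 21 of 21 with a median of 1.52 (Aurka 0.70 ± 0.14 to Kif11 2.01 ± 0.25).

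The other nucleotide supply genes had a smaller median difference than the 4 members. Of 26 tested 4 rose and 1 fell in tagged cells, with a median of 0.20, close to the 16.0% and 3.50% of all genes that rose and fell. It was 6 and 1, with a median of 0.26, without the library labelled perinate-tagged replicate 2. They ran from Slc29a2 (-0.46 ± 0.15, adjusted p = 0.0447), a nucleoside transporter, to Dck (0.88 ± 0.14, adjusted p = 0.000789), the salvage kinase of deoxycytidine. Dck read a mean of 8.54 ± 0.12 (SD) in adult-tagged and 9.41 ± 0.15 in perinate-tagged cells. Rrm2b, the reductase subunit used outside S phase, differed by -0.08 ± 0.20, Tk2, the mitochondrial thymidine kinase, by -0.29 ± 0.17, and Samhd1, which breaks nucleotides down, by 0.13 ± 0.17; none was called. In thymus 14 of 26 rose, against 18.5% of all genes, with a median of 0.61. The thymus differences ran from Rrm2b (-0.28 ± 0.16) to Cad (1.42 ± 0.18, adjusted p = 0.00193), which carries out the first steps of pyrimidine synthesis. Dck differed there by 0.48 ± 0.29 and Tk2 by 0.03 ± 0.15, Samhd1 by -0.06 ± 0.12, and none of these was called. Cad was 8.63 ± 0.13 (SD) in adult-tagged, 8.68 ± 0.09 in perinate-tagged, 8.34 ± 0.35 in adult thymus and 9.76 ± 0.10 in perinate thymus, and its spleen and thymus differences differed by -1.36 ± 0.25 (adjusted p = 0.00183).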

How the data were processed

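RNA of sorted Tregs was extracted with TriZol, labelled with an Affymetrix kit and read on microarrays, 18 samples in 6 groups of 3, per the labels' protocols. The authors deposited 1 linear intensity per probe set (6.81 to 18850). The submitters' processing notes name RMA and Affymetrix Power Tools; versions and the arrays normalised together are not given in the sources used here. RMA compresses low signals, so differences between small levels can be understated. Precision is limited by the number of arrays.

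The log2 of the deposited intensities was taken with no pseudocount and no further normalisation. A gene was tested when its mean in at least 1 group of the fit reached the median of all deposited values (132.7, or 7.052 on the log2 scale). Differences were tested two-sided with limma 3.58.1 in R 4.3.3, 1 coefficient a group, Benjamini-Hochberg adjusted over all genes of a contrast: 10350 in the fit of the 12 spleen arrays, 10650 in that of the 6 thymus arrays and 10889 over all 18. With 3 arrays against 3, an exact permutation test reaches no p below 0.1. In simulated data the spleen fit (10115 genes) recovered 88 of 100 genes changed by 1 and 98 of 100 changed by 2 on the log2 scale. The thymus fit (10257 genes) recovered 70 and 94. The changed genes were drawn from those with a mean at least 1 above the limit, and the noise was normal and independent. These rates do not cover dimmer members, such as Cdc6, Gins1 and Clspn, with means of 7.05, 6.74 and 6.82 over the 18 arrays. Python 3.11.15 with matplotlib 3.10.9 made the figures.

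The members, their roles, the pathway and marker lists, the tests and the alternatives were chosen with earlier results of these data known. Every array is given for the members with the largest and the smallest tagged difference of each role and for Mcm2, Pcna, Rrm2 and Tyms. Of each pathway list the highest and lowest genes are named, with Rrm2b, Tk2, Dck and Samhd1; others named were chosen after their values were seen. Same-numbered untagged arrays deviated together (r of 0.62, 0.13 and 0.45 for numbers 3, 4 and 5), each over 0.1. However, perinate 4 with adult 5 (0.28) and perinate 5 with adult 4 (0.29) correlated more than the same-numbered 4s did. Same-numbered tagged and untagged arrays had r of -0.11 and 0 after perinatal and 0.06 after adult tamoxifen. The main fits used no pairing, and replicate numbers entered as a block only in alternative fits. The labels do not state a pairing, and any sign of one comes from the correlations alone. Thymus numbers did not pair (-0.05, 0.07 and 0.12). Alternatives covered normalisation, the filter, probe sets, the variance prior, array weights, covariates, blocks and leaving out arrays; both spleen arrays with the narrowest interquartile range and the second probe sets of Pcna, Rpa3 and Tk1 were added after seeing the data, as was the promoter split without members that passed the limit through 1 group. Of 24922 probe sets, 21425 have 1 gene symbol, 1399 several and 2098 none, and those with several or none were not used. Promoter windows are RefSeq's, GRCm38.p6.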

Additional observations from a re-analysis of the deposited data

Results flagged for a closer look

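A limma interaction test over 12 arrays compared the perinate minus adult difference of tagged spleen cells with that of untagged ones. The tagged difference was called larger for 21 of the 41 members tested, against 4.29% of all genes (0.599% the other way). Cdc6 and Clspn are among them and, like Gins1, passed the signal limit only through the perinate-tagged group; without these 3 it was 19 of 38. Among nucleotide supply genes the excess was 2.03 for Rrm2, 1.67 for Tyms, 1.23 for Rrm1 and 1.13 for Tk1, all higher in tagged cells on the log2 scale. Fork surveillance gave 2.19 for Dtl, 1.74 for Chek1 and 0.91 for Clspn. The helicase and its loading gave 1.38 for Cdc6, 0.75 for Mcm2, 0.95 for Mcm3, 0.68 for Mcm4, 1.11 for Mcm6, 0.91 for Mcm10, 0.90 for Cdc45 and 0.79 for Gins2. Polymerase, clamp loader and ligase genes gave 1.23 for Pola1, 1.34 for Prim1, 1.82 for Pole, 1.19 for Rfc3, 1.41 for Rfc4 and 1.06 for Lig1. With the replicate number as a block 11 members were called, and 12 without adult-tagged replicate 1, against 2.37% and 2.44% of all genes called higher.

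The spleen and thymus differences themselves differed for 3 of the 42 members over all 18 arrays, near the share of all genes (3.89% higher and 2.56% lower). The spleen difference minus the thymus difference was 0.86 for Tk1, -0.75 for Mcm5 and -0.66 for Timeless, whose spleen difference was not called. Without the library labelled perinate-tagged replicate 2, Mcm5 (-0.63) and Timeless (-0.59) were no longer called. For Tk1 the call was lost on the gene's second probe set, where the value was 0.72. Groups of 3 arrays were too small for a test of single outlying arrays.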

How the results depend on the processing

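No member's called difference changed sign under any alternative run. With the interquartile range as covariate, 19 of 41 members were called in the tagged comparison (median 0.61), against 2.95% of all genes called higher. Without that covariate, also asking for a difference of at least 1 left 16 called, against 3.43% of all genes higher. The same limit left 5 between tagged and untagged perinate-treated cells, against 1.4% of all genes higher, and 0 in the tissue comparison. After adult tamoxifen, array weights gave 1 call and the fit of all 18 arrays 2. The interaction gave 13 with both narrowest spleen arrays left out. The tissue comparison gave 6 calls with quantile normalization, 19 with array weights and 1 with no filter on low values. Over all genes quantile normalization called 5.20% higher and 4.57% lower, and array weights 25.2% and 21.5%, so those 19 are near the share of all genes. The estimation of array weights stopped before convergence in the thymus and tissue fits, so the 19 is less reliable than the other counts. For these the cause was not tested, except that asking for a minimum difference leaves fewer genes by construction.

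With the replicate number as a block over the arrays of each fit, 27 members were called in tagged cells, 0 in untagged cells and 11 in the interaction. It gave 26 between tagged and untagged perinate-treated cells, 0 after adult tamoxifen, 38 in thymus and 1 in the tissue comparison. Over all genes 5.57%, 0%, 2.37%, 6.68%, 0%, 18% and 2.6% were then called higher, in that order. In the tissue comparison 1.77% of all genes were called lower. Over the 6 untagged arrays alone the block gave 0 members, and 37 higher and 12 lower over all genes, where 0 were called without it.

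Leaving out each array in turn gave 29 to 38 calls in tagged cells (median 0.84 to 0.94), 0 in untagged cells (0.03 to 0.18), 12 to 23 in the interaction (0.70 to 0.87), 10 to 26 after perinatal tamoxifen (0.51 to 0.68), 0 to 5 after adult tamoxifen (-0.31 to -0.15), 28 to 39 in thymus (0.98 to 1.11) and 0 to 5 in the tissue comparison (-0.24 to -0.07). Over all genes 7.6% to 19.2% were then called higher in tagged cells, 0% to 0.0482% in untagged cells and 2.44% to 5.35% in the interaction. Shares called higher were 2.46% to 6.67% after perinatal tamoxifen and 4.76% to 29.1% in thymus. After adult tamoxifen 0% to 5.44% of all genes were called lower. The tissue comparison called 2.62% to 5.58% higher and 0.982% to 5.79% lower. Members near the level of no signal, such as Orc1, are limited by signal over background.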
